A study of Mus musculus with 8 samples.

Results

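The respiratory chain subunit genes described here are the nuclear genes for the proteins of complexes I to V, the machinery of oxidative phosphorylation. They were taken by symbol: Nduf without the assembly factors (complex I), Sdha to Sdhd (complex II), Uqcr (complex III), Cox4 to Cox8 (complex IV) and Atp5 (complex V), and a probe set counted only where it was annotated to a single gene. This gave 94 of 12488 probe sets (69 of 8252 genes) on the U74Av2 array and 169 of 45101 probe sets (82 of 18194 genes) on the MOE430v2 array. Together these were 83 genes, of which 36 belonged to complex I, 4 to complex II, 8 to complex III, 18 to complex IV and 17 to complex V.

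The Foxa2 null embryos were made from Foxa2 null embryonic stem (ES) cells by tetraploid complementation. The ES cells were aggregated with wild-type tetraploid embryos. The epiblast of such an embryo descends from the ES cells, whereas its visceral endoderm and other extra-embryonic layers descend from the tetraploid host. The wild-type embryos came from ICR matings. Embryos were collected at embryonic day 7.5, the extra-embryonic regions were cut away while the visceral endoderm over the embryo proper was kept, and RNA was made from 2 Foxa2 null pools (53 and 48 embryos) and 2 wild-type pools (53 and 50 embryos). Each of the 4 extracts was hybridised to 1 array of each platform, which gave 8 arrays, so the platforms are technical repeats of the same pools. Foxa2, the forkhead factor removed in the mutant, is needed for the node, notochord and definitive endoderm. The host-derived endoderm in the Foxa2 null pools is itself wild type for Foxa2. For the mutant samples, ICR and mixed sex are named on MOE430v2 and left blank on U74Av2, and genotype cannot be told apart from the way the embryos were made. The study's staging placed wild-type pool 2 at a somewhat younger mean stage than the other pools.

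Complex I, a large assembly around a flavin and a chain of iron-sulfur clusters, takes electrons from NADH, and complex II takes them from succinate. Both pass them to ubiquinone, from which complex III carries them to cytochrome c and complex IV to oxygen. Complexes I, III and IV pump protons, and complex V, the ATP synthase, lets them flow back through a rotating ring to make ATP. Some of the core subunits of complexes I, III, IV and V are encoded by mitochondrial DNA, whereas the genes considered here are all nuclear. Gastrulating mouse embryos rely heavily on glycolysis, and respiratory chain function becomes increasingly important as organs form.

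The median signal ran from 48.0 in Foxa2 null pool 1 to 52.8 in Foxa2 null pool 2 and wild-type pool 2 on U74Av2. Those arrays were used as scaled by the authors. On MOE430v2 the median ran from 155 to 165 before normalization. Foxa2 itself had log2 signals of 6.39 and 6.55 in the Foxa2 null pools and 7.37 and 8.08 in the wild-type pools on U74Av2. On MOE430v2 the Foxa2 null pools had 8.96 and 9.06, against 9.62 and 10.17 in the wild-type pools. The pools did not overlap on either platform, but the differences of -1.25 and -0.88 did not reach the threshold (adjusted p = 0.130 and 0.141, limma with Benjamini-Hochberg adjustment). Of 22 visceral endoderm markers, 19 were bright enough to be tested on MOE430v2. Their summed signal was 131789 and 106237 in the Foxa2 null pools, against 99879 and 106745 in the wild-type pools. Their median log2 ratio was 0.19. At an unadjusted p under 0.05 (limma), 7 were higher (36.8%, against 6.03% of all probe sets) and 0 lower. The paper states that the mutant looks strongly enriched for such markers because it fails to displace this layer. Of 10 epiblast and mesoderm markers, 9 were measured, with sums of 11851 and 17344 in the Foxa2 null pools and 10494 and 13558 in the wild-type pools. A lower signal from a pool can mean fewer cells of a type or less RNA per cell, which bulk samples cannot tell apart.

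In all, 3 subunit genes passed the test, and all were lower in the Foxa2 null pools. They were Atp5e, which encodes the epsilon subunit of the central stalk of ATP synthase, Sdhd, which encodes a membrane anchor of succinate dehydrogenase, and Ndufs5, an accessory subunit of complex I. No subunit gene passed in the other direction. On MOE430v2 the lower calls were 1 of 157 subunit probe sets (0.637%, against 0.244% of all). Over both platforms they were 2 of 62 genes (3.23%, against 1.06% of all), and on U74Av2 0 of 78 probe sets (against 0.173%). Fitted without limma's trend of the variance on signal, 0 subunit genes passed on MOE430v2 and 0 over both platforms. Uqcrc2 (-0.49 over both platforms), Cox7b (-0.55 on U74Av2) and Ndufa4 (-0.44 on MOE430v2) differed by amounts of that order and did not pass. Wild-type pool 2 had the highest value of the 4 pools for 41 of the 62 genes tested on both platforms.

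The promoter windows of the 3 genes are shown because they are the subunit genes that passed the test and because respiratory chain genes share a small set of known promoter motifs. Each is 300 bases around the start of the gene, most of them before it, and is written 5′ to 3′ along the gene (RefSeq, GRCm38.p6). Capitals mark CCGGAAG, the core bound by the ETS factor GABPA (NRF-2), TGCGCA, the core of an NRF1 site, and AAGATGG, the core of a YY1 site, on either strand.
Atp5e (chr2:174464052-174464351, minus strand): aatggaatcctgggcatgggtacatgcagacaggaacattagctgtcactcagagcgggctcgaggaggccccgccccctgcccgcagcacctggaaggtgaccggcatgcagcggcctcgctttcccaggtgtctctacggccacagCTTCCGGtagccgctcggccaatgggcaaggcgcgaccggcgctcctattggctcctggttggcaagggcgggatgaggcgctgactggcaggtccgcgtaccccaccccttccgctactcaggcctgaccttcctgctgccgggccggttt
Sdhd (chr9:50603800-50604099, minus strand): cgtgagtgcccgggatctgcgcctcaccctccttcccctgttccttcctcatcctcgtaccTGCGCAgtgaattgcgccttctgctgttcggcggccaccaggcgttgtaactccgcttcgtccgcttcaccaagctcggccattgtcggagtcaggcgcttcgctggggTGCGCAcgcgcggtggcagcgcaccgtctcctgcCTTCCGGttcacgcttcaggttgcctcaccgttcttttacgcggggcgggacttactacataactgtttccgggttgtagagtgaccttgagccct
Ndufs5 (chr4:123718137-123718436, minus strand): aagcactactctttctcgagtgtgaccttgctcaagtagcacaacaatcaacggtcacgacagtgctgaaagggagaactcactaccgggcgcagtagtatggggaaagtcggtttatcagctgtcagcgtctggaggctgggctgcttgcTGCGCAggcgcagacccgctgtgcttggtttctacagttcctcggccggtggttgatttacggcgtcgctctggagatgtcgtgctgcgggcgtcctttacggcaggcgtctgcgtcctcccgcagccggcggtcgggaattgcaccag

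The Atp5e window held 1 match, to the GABPA core. The Sdhd window held 3 matches, 1 to the GABPA core and 2 to the NRF1 core, and the Ndufs5 window held 1, to the NRF1 core. Promoter windows were matched for 68 of the 83 genes (73 windows). The GABPA core was found in 17 of these windows (23.3%), in 15.1% of 14519 windows of the genes tested on MOE430v2 and in 8.86% of all 32851 windows. TGCGCA, which reads the same on both strands, was found in 24.7% of the subunit windows, 12.3% of those of tested genes and 7.76% of all. AAGATGG, which can overlap the end of the GABPA core, was found in 13.7% of the subunit windows, 6.62% of those of tested genes and 6.34% of all. By complex, the GABPA core was in 4 of 34 windows of complex I, 2 of 3 of complex II, 2 of 5 of complex III, 3 of 13 of complex IV and 6 of 18 of complex V. A match is a string of letters in a window of 300 bases and shows no binding.

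Of the subunit probe sets, 78 of 94 on U74Av2 and 157 of 169 on MOE430v2 were bright enough to be tested, and 62 genes had a tested probe set on both platforms. On U74Av2, 0 of 78 passed as lower, against 0.173% of all probe sets tested, and 0 as higher, against 0.104% (limma, adjusted p under 0.05). On MOE430v2, 1 of 157 passed as lower, against 0.244% of all, and 0 as higher, against 0.19%. Over both platforms, 2 of 62 genes passed as lower, against 1.06% of the 5933 genes tested, and 0 as higher, against 1.35%. Calls were thus few for the subunit genes, as they were for all genes.

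At an unadjusted p under 0.05 the lower side held more subunit genes than the upper side. On U74Av2, 6 of 78 probe sets (7.69%) were lower, against 5.01% of all, and 0 were higher, against 5.01%. On MOE430v2, 19 of 157 (12.1%) were lower, against 6.07%, and 4 (2.55%) were higher, against 6.03%. Over both platforms, 9 of 62 genes (14.5%) were lower, against 7.84%, and 0 were higher, against 7.42%. The order of the pools showed the same side. Both Foxa2 null pools lay below both wild-type pools for 26 of 78 probe sets on U74Av2 (33.3%, against 21.4% of all), 56 of 157 on MOE430v2 (35.7%, against 21.8%) and 24 of 62 genes over both platforms (38.7%, against 23.5%). Both lay above for 2 of 78 (2.56%, against 18.6%), 21 of 157 (13.4%, against 21.5%) and 5 of 62 (8.06%, against 22.1%).

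**Figure D1:**
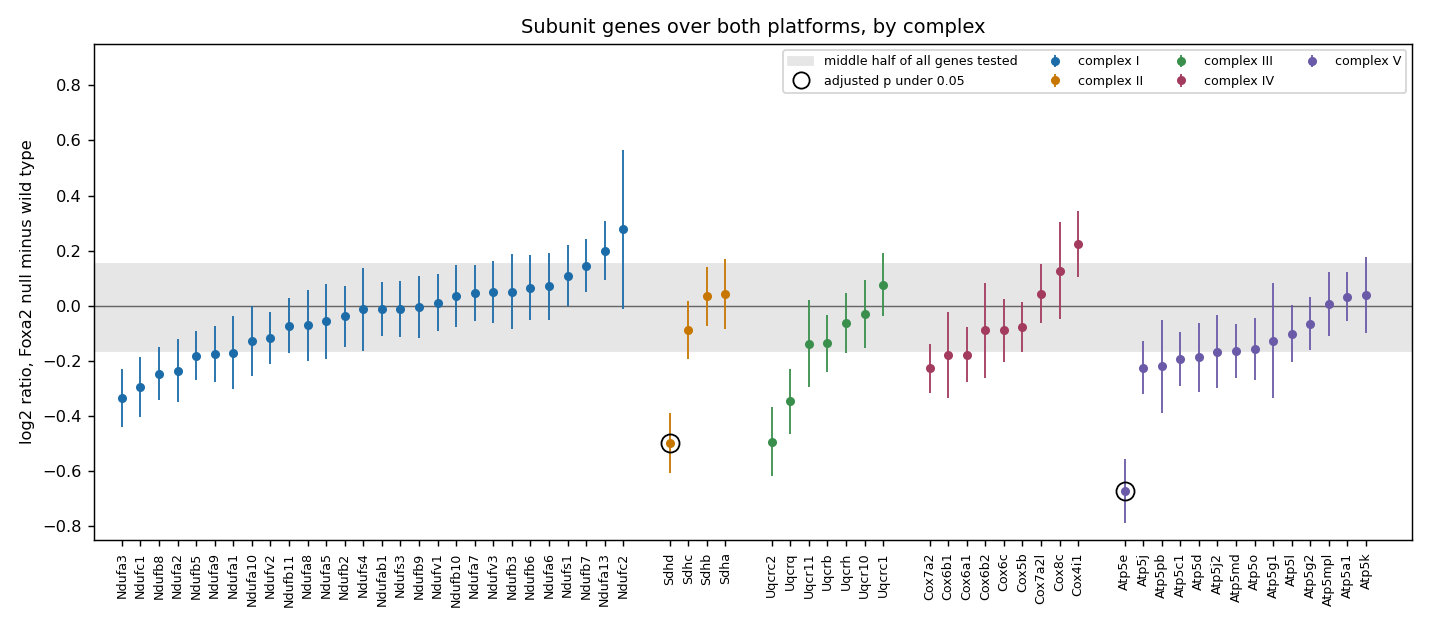
Log2 ratio (Foxa2 null minus wild type, averaged over both platforms) of the 62 subunit genes tested on both, ordered within each complex. Points are estimates, bars are 1 standard error (2 pools per genotype), the grey band is the interquartile range of single genes over all 5933 (-0.16 to 0.15), and rings mark Sdhd and Atp5e, the genes that passed at an adjusted p under 0.05.

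The median log2 ratio over both platforms was -0.075 for the 62 subunit genes and -0.0097 for all 5933 genes. By complex the median was -0.013 for complex I (28 genes, 17 below 0), -0.027 for complex II (4 genes, 2 below 0), -0.14 for complex III (7 genes, 6 below 0), -0.089 for complex IV (9 genes, 6 below 0) and -0.16 for complex V (14 genes, 11 below 0). On U74Av2 the medians were 0.036, -0.011, -0.045, -0.17 and -0.21 for complexes I to V, and on MOE430v2 they were -0.079, -0.097, -0.20, -0.057 and -0.057. The order of the complexes thus differed between the arrays, with complex V lowest on U74Av2 and complex III lowest on MOE430v2. No permutation of 2 pools against 2 can give a two-sided p under 0.333, and the complex medians were not tested.

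The mean over the subunit genes, centred per gene, was -0.030 and -0.057 in Foxa2 null pools 1 and 2, against -0.028 and 0.12 in wild-type pools 1 and 2. The Foxa2 null pools thus lay at the level of wild-type pool 1, with differences of -0.0021 and -0.028, and below wild-type pool 2, with differences of -0.15 and -0.17. Wild-type pool 2 had the highest value of the 4 pools for 41 of 62 subunit genes (66.1%), against 26.6% of all genes, and lay above wild-type pool 1 for 50 of 62 (80.6%), against 51.5% of all. With wild-type pool 2 left out the median over the subunit genes was -0.018, and with wild-type pool 1 left out it was -0.15. This pool is the one staged youngest, and the part of stage in the difference was not tested.

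**Figure D2:**
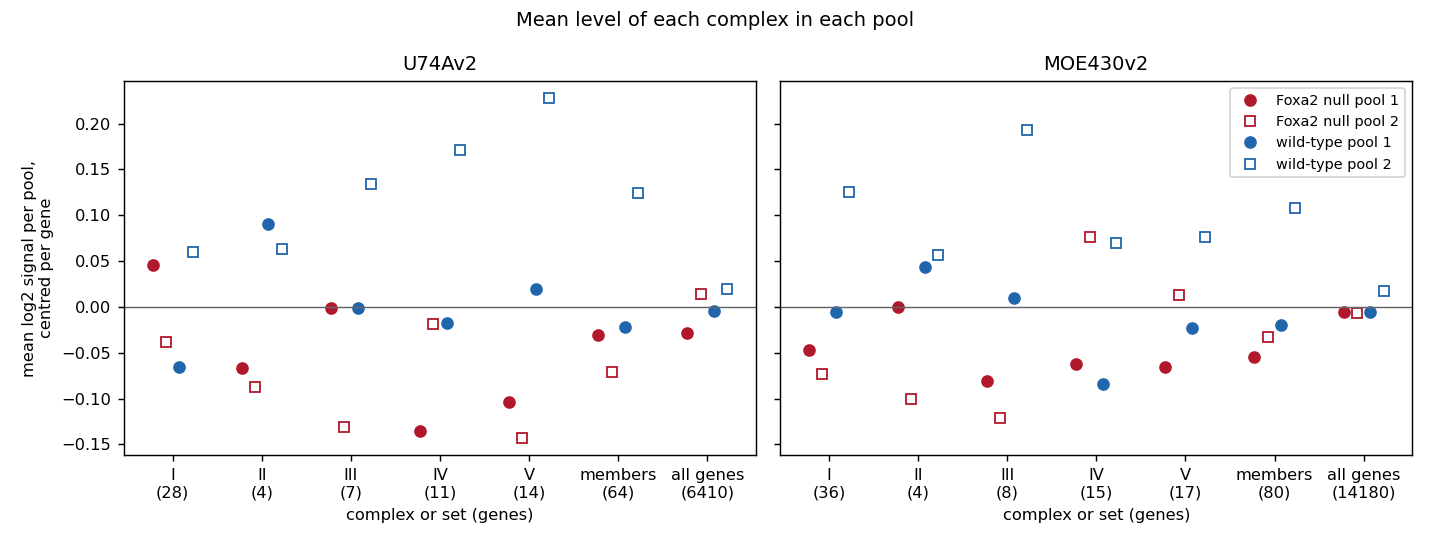
Mean log2 signal of each complex in each pool, centred per gene, on U74Av2 (left) and MOE430v2 (right), with the number of genes in brackets. Red marks are the Foxa2 null pools and blue marks the wild-type pools. Wild-type pool 2 (open blue squares) was highest for all members on both arrays, at 0.12 and 0.11, while the other 3 pools lay between -0.07 and -0.02.

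The same pool stood highest in complexes I, III and V on both arrays. For complex V on U74Av2 the pool means were -0.10 and -0.14 in the Foxa2 null pools, against 0.02 and 0.23 in the wild-type pools, and for complex III on MOE430v2 they were -0.08 and -0.12 in the Foxa2 null pools, against 0.01 and 0.19 in the wild-type pools. In these cases both Foxa2 null pools also lay below wild-type pool 1, which did not hold on the other array. Complex V on MOE430v2 had -0.07 and 0.01 in the Foxa2 null pools, against -0.02 and 0.08 in the wild-type pools. For complex III on U74Av2, Foxa2 null pool 1 and wild-type pool 1 were both at -0.0016. Complex IV on MOE430v2 differed, with -0.06 and 0.08 in the Foxa2 null pools, against -0.08 and 0.07 in the wild-type pools. Second pools thus stood above first pools in both genotypes. That order was also seen for complex V on MOE430v2 and for complex IV on U74Av2. The latter had -0.13 and -0.02 in the Foxa2 null pools, against -0.02 and 0.17 in the wild-type pools. Complex II rested on 4 genes, of which Sdhd was far lower than the other 3. The visceral endoderm marker sum on MOE430v2 was highest in Foxa2 null pool 1 rather than in either wild-type pool, and its part in the subunit levels was not tested.

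Atp5e had log2 signals of 8.17 and 8.05 in the Foxa2 null pools, against 8.92 and 9.14 in the wild-type pools, on U74Av2, a difference of -0.92 ± 0.16 (SE, adjusted p = 0.0900). On MOE430v2 it had 11.17 and 11.23 in the Foxa2 null pools, against 11.58 and 11.68 in the wild-type pools, a difference of -0.42 ± 0.11 (adjusted p = 0.168). The genotypes did not overlap on either array. Over both platforms the ratio was -0.67 ± 0.12, a fold of 0.627, and passed the test (adjusted p = 0.0238, limma with Benjamini-Hochberg adjustment). It did not pass without wild-type pool 2 (-0.59, adjusted p = 0.0894), a fit that leaves 1 wild-type pool and takes its spread from the Foxa2 null pools and the other genes. The name of its single MOE430v2 probe set marks probes shared by several transcripts, and that of its single U74Av2 probe set an incomplete set of probes.

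Sdhd had 9.51 and 9.43 in the Foxa2 null pools, against 10.15 and 10.21 in the wild-type pools, on U74Av2 (-0.71 ± 0.13, adjusted p = 0.101). On MOE430v2 its brightest probe set gave 11.97 and 11.91 in the Foxa2 null pools, against 12.05 and 12.40 in the wild-type pools (-0.28 ± 0.13, adjusted p = 0.414), and a dimmer one gave -0.05. Wild-type pool 1 lay close to the Foxa2 null pools on MOE430v2 and well above them on U74Av2. Over both platforms the ratio was -0.50 ± 0.11, a fold of 0.708 (adjusted p = 0.0447), and the call was lost without Foxa2 null pool 2 (adjusted p = 0.0525), wild-type pool 1 (0.0694) or wild-type pool 2 (0.206), fits that also rest on 1 pool of a genotype.

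The other subunits of complex II did not follow Sdhd. Over both platforms Sdhc, the partner membrane anchor, had a ratio of -0.09 ± 0.10, Sdhb, the iron-sulfur subunit, 0.03 ± 0.11, and Sdha, the flavoprotein that oxidises succinate, 0.04 ± 0.13 (adjusted p = 0.763 to 0.910). Sdhb on U74Av2 had 9.62 and 9.38 in the Foxa2 null pools, against 9.46 and 9.31 in the wild-type pools, and Sdha on MOE430v2 had 12.27 and 11.99 in the Foxa2 null pools, against 12.28 and 11.83 in the wild-type pools. The pools of both genotypes overlapped for both genes. A second MOE430v2 probe set of Sdhc gave 0.26, against -0.15 from its brightest.

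Ndufs5 had log2 signals of 10.40 and 10.31 in the Foxa2 null pools, against 11.36 and 11.66 in the wild-type pools, on MOE430v2. Its difference of -1.15 ± 0.14, a fold of 0.450, was the only subunit call on a single array (adjusted p = 0.0143). Further probe sets are annotated to both Ndufs5 and its pseudogene Ndufs5-ps: 1 on MOE430v2 gave 10.07 and 10.07 in the Foxa2 null pools, against 10.43 and 10.91 in the wild-type pools (-0.60 ± 0.17, adjusted p = 0.214), and 1 on U74Av2 gave 8.84 and 8.64 in the Foxa2 null pools, against 8.93 and 8.95 in the wild-type pools (-0.21 ± 0.15, adjusted p = 0.731). All 3 lay lower in both Foxa2 null pools, by amounts that differed, and how far the pseudogene contributes to them was not tested. With wild-type pool 2 left out, the single-gene probe set no longer passed (-0.9995, adjusted p = 0.0954).

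**Figure D3:**
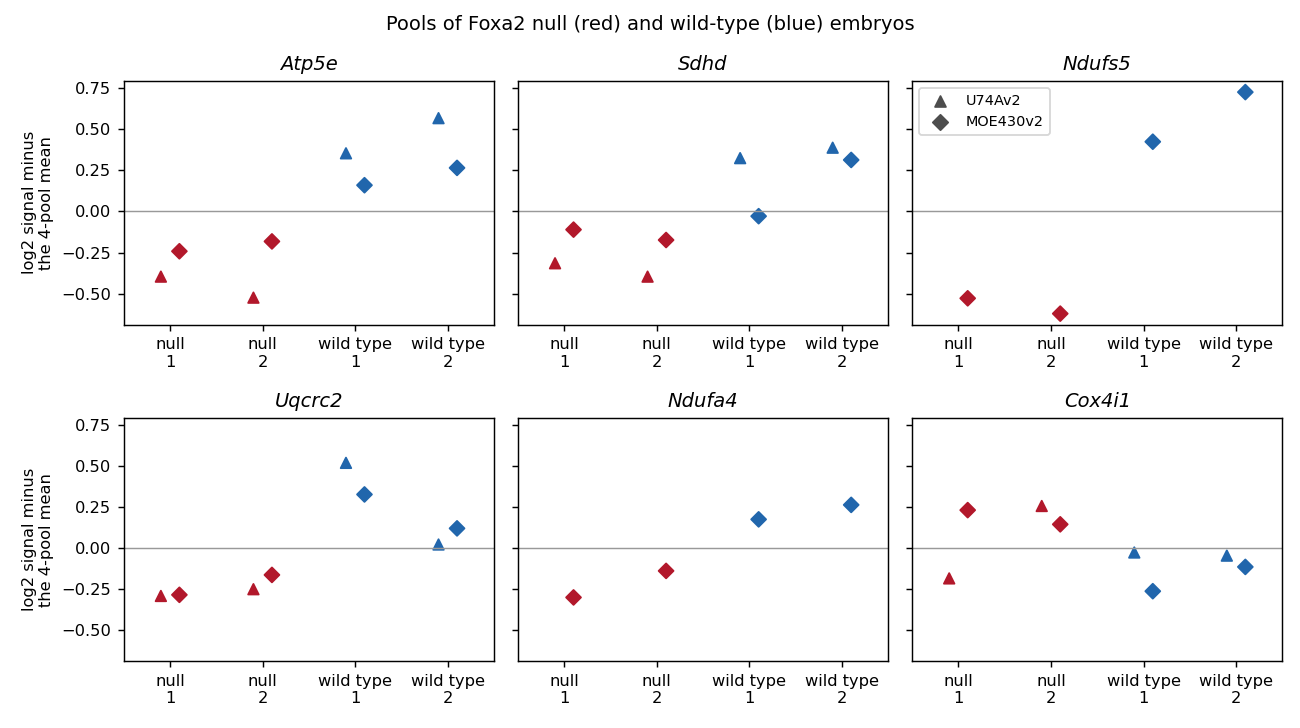
Log2 signal of 6 subunit genes in each pool, minus the mean of the 4 pools on that array, for the brightest tested probe set; triangles are U74Av2 and diamonds MOE430v2, with Foxa2 null pools in red and wild-type pools in blue. The Foxa2 null pools lay below the wild-type pools for Atp5e, Sdhd, Ndufs5, Uqcrc2 and Ndufa4, and above them on MOE430v2 for Cox4i1.

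The rest of complex I held its lowest ratios in small accessory subunits. Over both platforms Ndufa3 had -0.34 ± 0.11 (adjusted p = 0.147), Ndufc1 -0.30 ± 0.11 (0.222) and Ndufb8 -0.25 ± 0.10 (0.249), none of which passed. Ndufa3 on U74Av2 had 9.08 and 9.17 in the Foxa2 null pools, against 9.40 and 9.46 in the wild-type pools, and on MOE430v2 12.08 and 12.10 in the Foxa2 null pools, against 12.33 and 12.57 in the wild-type pools. Ndufc1 on U74Av2 had 9.38 and 9.35 in the Foxa2 null pools, against 9.59 and 9.72 in the wild-type pools. The genotypes did not overlap for either gene on either array. A further Ndufa3 probe set on MOE430v2, with a low signal, gave 0.21, and a second on U74Av2 gave -0.07.

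The subunits that hold the flavin and the iron-sulfur clusters of complex I differed in sign, and none passed. Ndufv1, which binds NADH and the flavin, had a ratio of 0.01 ± 0.10 over both platforms, Ndufs1, the largest of them, 0.11 ± 0.11, and Ndufv2 -0.12 ± 0.09. Both Foxa2 null pools lay above both wild-type pools for Ndufs1 and below them for Ndufv2. Ndufs7 and Ndufs8 were measured on MOE430v2 only. The brightest Ndufs7 probe set gave 0.03 ± 0.11 and the other -0.22. The brightest Ndufs8 probe set had 11.84 and 11.82 in the Foxa2 null pools, against 11.95 and 12.12 in the wild-type pools (-0.20 ± 0.11, adjusted p = 0.495), and its other probe sets ran from -0.51 to 0.23. Ndufa4, named as a complex I subunit and now counted with complex IV, was measured on MOE430v2 only, at 12.58 and 12.74 in the Foxa2 null pools, against 13.06 and 13.14 in the wild-type pools (-0.44 ± 0.10, adjusted p = 0.0983). Its pools did not overlap. By its symbol Ndufa4 stayed with complex I in the counts, medians and pool means given here.

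The subunit genes Ndufa13, Ndufb7 and Cox4i1 lie on chromosome 8, whose genes as a whole were higher in the Foxa2 null pools, with a median log2 ratio of 0.37 over 320 genes on both platforms. Ndufa13, an accessory subunit also known as GRIM-19, had 12.71 and 12.81 in the Foxa2 null pools, against 12.54 and 12.60 in the wild-type pools, on MOE430v2 and 0.20 ± 0.11 over both platforms. Ndufb7, another accessory subunit, had 12.32 and 12.38 in the Foxa2 null pools, against 12.07 and 12.25 in the wild-type pools, and 0.15 ± 0.10. Cox4i1, the widely expressed form of a regulatory complex IV subunit, had 13.77 and 13.68 in the Foxa2 null pools, against 13.28 and 13.43 in the wild-type pools, on MOE430v2 (0.38 ± 0.09, adjusted p = 0.124).

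None of these 3 genes passed the test, and the Cox4i1 probe sets on U74Av2 gave 0.07 and 0.10. They were 3 of the 5 genes over both platforms for which both Foxa2 null pools lay above both wild-type pools, the others being Ndufs1 and Cox7a2l. Without them the median over the subunit genes was -0.088, complex I was at -0.026 and complex IV at -0.090. Ndufc2, an accessory subunit with the highest complex I ratio (0.28 ± 0.29), rested on 1 low value: on U74Av2 it had 4.77 and 4.54 in the Foxa2 null pools, against 2.81 and 4.93 in the wild-type pools. Its brightest MOE430v2 probe set pointed the other way (-0.23).

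In complex III, Uqcrc2, which encodes the second of the large core proteins, had 9.57 and 9.61 in the Foxa2 null pools, against 10.38 and 9.88 in the wild-type pools, on U74Av2. On MOE430v2 it had 11.95 and 12.07 in the Foxa2 null pools, against 12.56 and 12.35 in the wild-type pools. Unlike most of the subunit genes, it was highest in wild-type pool 1 on both arrays. The ratio over both platforms was -0.49 ± 0.13 and did not pass (adjusted p = 0.0813). In the fits that leave 1 pool of a genotype, the adjusted p was 0.0258 without Foxa2 null pool 2 and 0.0456 without wild-type pool 2. A second MOE430v2 probe set gave -0.10.

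Uqcrq, a small subunit near the ubiquinone site, had 10.70 and 10.48 in the Foxa2 null pools, against 10.77 and 11.05 in the wild-type pools, on U74Av2 and -0.35 ± 0.12 over both platforms (adjusted p = 0.182). Its other tested MOE430v2 probe sets were dim and gave -0.23 and 1.06, with 7.46 and 8.28 in the Foxa2 null pools, against 5.83 and 7.80 in the wild-type pools, for the higher value. Uqcrc1, the other core protein, was at 0.08 ± 0.11, and Uqcr10, a small subunit, at -0.03 ± 0.12. The core proteins Uqcrc1 and Uqcrc2 thus differed in sign, a difference that was not tested. Uqcrfs1, the Rieske iron-sulfur protein, was tested on MOE430v2 only, at 11.87 and 12.01 in the Foxa2 null pools, against 12.20 and 12.25 in the wild-type pools (-0.28 ± 0.10, adjusted p = 0.316).

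Several complex IV subunits exist in tissue forms encoded by separate genes. Over both platforms the widely expressed forms Cox6a1, Cox6b1 and Cox7a2 had ratios of -0.18 ± 0.10, -0.18 ± 0.16 and -0.23 ± 0.09 (adjusted p = 0.258 to 0.655). Cox7a2 had 14.27 and 14.32 in the Foxa2 null pools, against 14.37 and 14.55 in the wild-type pools, on MOE430v2, and 10.85 and 10.68 in the Foxa2 null pools, against 10.99 and 11.13 in the wild-type pools, on U74Av2. Its pools did not overlap on either array. Cox7a2l, a relative that takes part in joining complexes III and IV, was at 0.04 ± 0.11, and its MOE430v2 probe sets gave -0.04 to 0.19. On U74Av2 Cox7a2l had 8.65 and 8.67 in the Foxa2 null pools, against 8.80 and 8.73 in the wild-type pools (-0.11).

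The muscle and testis forms gave small and uncertain differences. Cox6a2 and Cox7a1, the heart and muscle forms, were left out on U74Av2 as dim, and on MOE430v2 they had ratios of -0.29 ± 0.36 and -0.13 ± 0.33. Cox6b2, a testis form, was at -0.09 ± 0.17 over both platforms, and Cox8c, another, was at 0.13 ± 0.18, with 7.75 and 7.64 in the Foxa2 null pools, against 7.20 and 7.96 in the wild-type pools, on U74Av2. A dim MOE430v2 probe set of Cox8c gave 1.41, with 7.32 and 7.97 in the Foxa2 null pools, against 5.21 and 7.26 in the wild-type pools. Cox4i2, the form tied to low oxygen and lung, was at 0.19 ± 0.29 on MOE430v2. Cox8a, the widely expressed form, was at -0.06 ± 0.13 on MOE430v2, and Cox8b, the muscle form, was tested on U74Av2 only, at -0.39 ± 0.22. None of these passed the test.

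Cox7b, a small X-linked subunit, had a single probe set, on U74Av2, with 9.50 and 9.82 in the Foxa2 null pools, against 10.24 and 10.17 in the wild-type pools (-0.55 ± 0.15, adjusted p = 0.229). The study chose this gene on these samples for its staining screen, so its direction is not independent evidence. Of the remaining complex IV genes over both platforms, Cox5b was at -0.08 ± 0.09 and Cox6c at -0.09 ± 0.11.

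In complex V, Atp5e stood apart from the catalytic subunits. Atp5a1, the alpha subunit, was at 0.03 ± 0.09 over both platforms, and Atp5b, the catalytic beta subunit, had 14.25 and 14.37 in the Foxa2 null pools, against 14.12 and 14.29 in the wild-type pools, on MOE430v2 (0.11 ± 0.09, adjusted p = 0.668). Atp5j, coupling factor 6 of the peripheral stalk, had 9.41 and 9.27 in the Foxa2 null pools, against 9.61 and 9.64 in the wild-type pools, on U74Av2 and -0.22 ± 0.09 over both platforms (adjusted p = 0.295). Atp5c1 and Atp5d, which with Atp5e form the central stalk, were at -0.19 ± 0.10 and -0.19 ± 0.13 (adjusted p = 0.389 and 0.545). Atp5k, the e subunit of the membrane part, was at 0.04 ± 0.14.

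The 3 genes Atp5g1, Atp5g2 and Atp5g3 encode the same mature ring subunit with different targeting sequences. Over both platforms Atp5g1 was at -0.13 ± 0.21 and Atp5g2 at -0.07 ± 0.10. Atp5g1 on U74Av2 varied within a genotype, with 4.55 and 5.79 in the Foxa2 null pools, against 5.07 and 5.53 in the wild-type pools. Atp5g3, measured on MOE430v2 only, had 14.51 and 14.57 in the Foxa2 null pools, against 14.46 and 14.41 in the wild-type pools (0.10 ± 0.07, adjusted p = 0.637).

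The ratios of subunit probe sets on MOE430v2 spread most widely where the signal was low. On MOE430v2, 28 subunit probe sets had a mean log2 signal below 9, their ratios ran from -1.68 to 1.47, and 8 of them lay beyond 0.5 in either direction, against 2 of the 129 brighter ones. The extremes of the dim group were a probe set of Ndufb2 at -1.68, with 5.34 and 6.50 in the Foxa2 null pools, against 7.52 and 7.67 in the wild-type pools, and one of Ndufb8 at 1.47, with 6.46 and 6.72 in the Foxa2 null pools, against 6.35 and 3.88 in the wild-type pools. The brightest probe sets of both genes gave -0.08 and -0.34. On U74Av2, 3 of 38 dim and 3 of 40 brighter probe sets lay beyond 0.5.

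**Figure D4:**
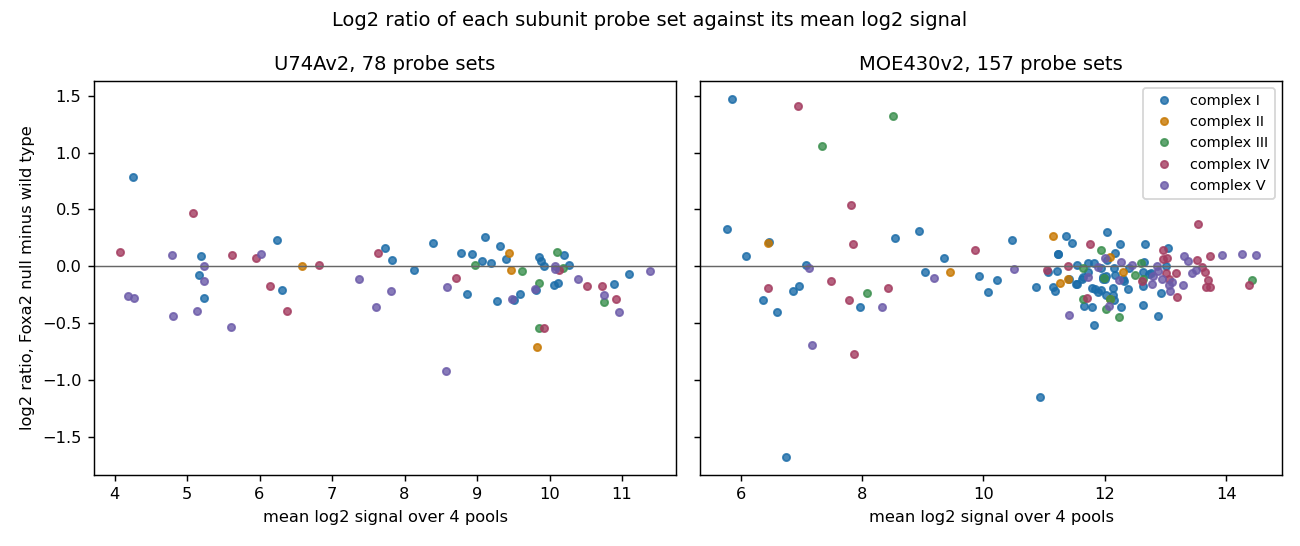
Log2 ratio (Foxa2 null minus wild type) of every tested subunit probe set against its mean log2 signal over the 4 pools, on U74Av2 (left, 78 probe sets) and MOE430v2 (right, 157), coloured by complex. On MOE430v2 the ratios ran from -1.68 to 1.47 below a mean log2 signal of 9 and from -1.15 to 0.38 at or above it.

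Genes that work beside the subunits gave no calls in either direction. Of 47 listed electron transport and assembly genes, 44 were tested on MOE430v2, with a median of -0.057, and at an unadjusted p under 0.05, 6 were lower (13.6%, against 6.07% of all probe sets) and 2 higher (4.55%, against 6.03%). Of 13 tricarboxylic acid cycle genes, 12 were tested there, with a median of -0.027. At that p, 3 were lower (25%, against 6.07%) and 0 higher (against 6.03%). Of 16 regulators of mitochondrial biogenesis, all 16 were tested, with a median of 0.011, and at that p 2 were lower (12.5%) and 1 higher (6.25%). The lower ones were Tfb1m, a methyltransferase of mitochondrial ribosomal RNA (-0.86 ± 0.19, adjusted p = 0.0970), and Twnk, the mitochondrial DNA helicase (-0.51 ± 0.13, adjusted p = 0.156), and the higher one was Polg, the mitochondrial DNA polymerase (0.57 ± 0.15, adjusted p = 0.175). Gabpa, whose product binds the GABPA core, was at 0.16 ± 0.15, and Nrf1 was at 0.16 ± 0.15 (adjusted p = 0.710 and 0.714). Cytochrome c (Cycs), the carrier between complexes III and IV, was at -0.08 ± 0.08 on MOE430v2. It was 1 of 19 listed genes of cytochrome c, cytochrome c1 and coenzyme Q synthesis, of which 17 were tested there, with a median of -0.079. At that p, 1 was lower (5.88%, against 6.07%) and 2 were higher (11.8%, against 6.03%). The median of this list was -0.0079 for 11 genes on U74Av2 and -0.038 over both platforms. The other array differed for some lists. On U74Av2 the medians were -0.083 for 17 electron transport and assembly genes, 0.088 for 11 cycle genes and 0.14 for 11 regulators. At that p, 0 were lower in each of these lists there (against 5.01% of all probe sets), and 1, 0 and 2 were higher (5.88%, 0% and 18.2%, against 5.01%). Over both platforms the medians were -0.074, 0.039 and 0.11. There 2, 1 and 0 were lower (11.8%, 9.09% and 0%, against 7.84% of all genes). The higher ones were 1, 0 and 2 (5.88%, 0% and 18.2%, against 7.42%).

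The 76 mitochondrial ribosomal protein genes tested on MOE430v2 had a median of -0.12, with 8 lower (10.5%, against 6.07% of all probe sets) and 5 higher (6.58%, against 6.03%) at an unadjusted p under 0.05. The 60 tested on U74Av2 had a median of -0.014, with 1 lower (1.67%, against 5.01%) and 5 higher (8.33%, against 5.01%). Over both platforms the median was -0.052, with 3 lower (5%, against 7.84% of all genes) and 4 higher (6.67%, against 7.42%). Over both platforms 60 such genes averaged -0.013 and -0.0065 in the Foxa2 null pools, against -0.060 and 0.079 in the wild-type pools, so that wild-type pool 2 was highest here as well. Of the 13 mitochondrially encoded subunits, 0 were found by symbol among the genes tested on either array, and they were not analysed here.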

How the data were processed

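RNA from 4 pools of embryos was hybridised to 4 U74Av2 and 4 MOE430v2 arrays. The authors deposited MAS5 signal values, a linear intensity for each probe set, brought to a common target on each platform. The mean after trimming 2% at each end is 150 on the U74Av2 arrays and 500 on the MOE430v2 arrays. Probe-level values, detection calls and the authors' change calls are not analysed here. The number of arrays limits the precision.

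Genes were named through the platform annotation, updated by gene ID to GRCm38.p6, and 10 probe sets per array that name a subunit gene together with another gene were left out of the counts. Signals under 0.1 were set to 0.1 and log2 was taken in R 4.3.3 (with the data.table package, version 1.17.8). U74Av2 values were used as scaled, and MOE430v2 values were normalized by cyclic loess. Probe sets were ranked by their mean over the 4 pools and the dimmest 30% were dropped (8695 and 31526 tested). The Foxa2 null minus wild-type difference was tested with limma 3.58.1 (lmFit and an eBayes fit with a trend on signal). P-values are two-sided and adjusted by Benjamini-Hochberg over every tested probe set, and an adjusted p under 0.05 counted as a call. The fit had no block. Over both platforms the brightest probe set of a gene was taken on each, centred, and averaged per extract, so that n stayed 2 pools per genotype. Nothing beyond the pools' numbers shows whether pools were paired, and p-values measure the spread between these pools. The fits were checked on simulated data.

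Named genes were those with a call, the 2 highest and 2 lowest of each complex over both platforms, the chromosome 8 genes, complex II, and the paralog families. Others are named as examples chosen after their values were seen, for instance Ndufa4, Ndufb8, the flavin and iron-sulfur subunits, Polg, Tfb1m, Twnk, Cox7b and Uqcrfs1. The members and lists were chosen with earlier results of these data known. Trophoblast, parietal endoderm and primitive blood markers were also listed.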

Additional observations from a re-analysis of the deposited data

How the results depend on the processing

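The number of arrays and the dim signal of some probe sets limit these results. No subunit gene or probe set passed as higher under any alternative except the replicate block. The subunit calls rested on the intensity trend of the variance: without it, the calls were 0 on MOE430v2 and 0 over both platforms. Lower calls over both platforms were also 0 with median centring, 1 with cyclic loess on U74Av2 and signals as deposited on MOE430v2, 1 with no filter, 1 with the mean of a gene's probe sets and 0 without probe sets whose names carry a letter suffix for shared or incomplete probes. Leaving out 1 pool at a time, with the lone pool of a genotype assumed to vary like the other genotype's, gave 1 to 2 lower calls over both platforms, 0 to 1 on MOE430v2 (0 without wild-type pool 2) and 0 to 0 on U74Av2. With the dimmest 50% left out, 1 probe set was lower on U74Av2. Samples of the 2 genotypes share only a number: the deviations of same-numbered pools correlated at 0.162 over both platforms. The replicate block gave 4 lower on U74Av2, 12 lower and 2 higher on MOE430v2, and 5 lower over both platforms. The block enters the fit of every gene, and the share of all features called with it is not given here. These counts therefore cannot be read as particular to the subunit genes. The cause of these changes was not tested.

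The median over both platforms ran, over the pools left out, from -0.15 to -0.018 for all subunit genes, from -0.085 to 0.037 for complex I, from -0.074 to -0.017 for complex II, from -0.20 to 0.028 for complex III, from -0.16 to 0.025 for complex IV and from -0.24 to -0.083 for complex V. The complex II median was 0.024 with the mean of probe sets and -0.23 without suffixed probe sets, where complex IV was at -0.28 and complex V at -0.055. With the mean of probe sets the ratio changed sign for Atp5a1 (-0.033), Cox6b2 (0.0051), Cox7a2l (-0.026), Sdhc (0.015) and Uqcr10 (0.30). Over the pools left out the ratio also changed sign for Atp5a1 (-0.043 to 0.11), Atp5g1 (-0.46 to 0.20), Atp5k (-0.13 to 0.21), Cox6a2 (-0.71 to 0.12), Cox6b1 (-0.39 to 0.037), Cox7a1 (-0.29 to 0.038), Cox8a (-0.26 to 0.15), Cox8c (-0.14 to 0.39), Ndufc2 (-0.29 to 0.85), Sdha (-0.054 to 0.14), Sdhb (-0.058 to 0.13), Uqcr10 (-0.18 to 0.11) and Uqcrc1 (-0.032 to 0.19). None of these genes passed the test under these settings.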

Other observations

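Some subunit genes are measured only, or better, by probe sets that also name a near-identical copy, which were left out of the counts above. Ndufb4, annotated with Ndufb4b and Ndufb4c, had 11.66 and 11.61 in the Foxa2 null pools, against 11.78 and 11.98 in the wild-type pools, on its brighter MOE430v2 probe set (-0.25 ± 0.11, adjusted p = 0.424, limma) and gave -0.31 on the other. Cox7c, annotated with Gm12338, had 12.57 and 12.60 in the Foxa2 null pools, against 12.52 and 12.79 in the wild-type pools, on U74Av2 (-0.07 ± 0.12). Ndufs6, annotated with Ndufs6b, was at 0.00 ± 0.10 on MOE430v2 and at -0.28 and -0.08 on U74Av2. None of the tested ones passed.

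A Uqcr10 probe set on MOE430v2 that was too dim to be tested had log2 signals of 7.32 and 7.16 in the Foxa2 null pools, against 3.54 and 2.12 in the wild-type pools. A second, tested one had 9.28 and 9.05 in the Foxa2 null pools, against 7.003 and 8.69 in the wild-type pools (1.32 ± 0.46, adjusted p = 0.296), while the brightest gave -0.02 ± 0.14. These were noticed after the values were seen.

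The other marker lists moved with the pools as follows on MOE430v2. Primitive blood markers (5 of 10 tested) summed to 2586 and 835 in the Foxa2 null pools and to 1280 and 2056 in the wild-type pools. Parietal endoderm markers (9 of 10) summed to 18376 and 15571 in the Foxa2 null pools and to 18199 and 15606 in the wild-type pools. Trophoblast and extra-embryonic ectoderm markers (5 of 10) summed to 5243 and 5345 in the Foxa2 null pools and to 4377 and 4114 in the wild-type pools. The median log2 ratio of these 5 genes was -0.24, with 3 below 0, so the sum and the median differed in direction. The part of these lists in the subunit levels was not tested.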
